A study of Mus musculus with 2 samples.

Results

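The genes described here encode the Tal1, Lmo2 and Ldb1 transcription factor complex and its close partners: Tal1, Lyl1, Tcf3, Lmo2, Ldb1, Cbfa2t3, Cbfa2t2 and Runx1. They were listed by name, and make up 8 of the 21532 protein-coding genes of known strand. For each gene, all peaks of both replicates were taken over the gene span and 40 kb on either side, stopping at the promoters of neighbouring protein-coding genes. The samples form a single group of 2 biological replicates. Both are MEL cells, an immortalised mouse erythroleukaemia line that the labels liken to the human line K562, given 2% dimethyl sulfoxide (DMSO) for 5 days. DMSO is a textbook inducer of red cell maturation in this line. Histone H3 trimethylated at lysine 4 (H3K4me3), a mark found at active and poised promoters, was profiled by ChIP-seq from fragments of 150 to 350 bp. No untreated group was analysed here, so nothing below is a response to DMSO. A mark on chromatin is also not a measure of RNA.

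In developing blood cells, Tal1 pairs with an E protein such as Tcf3 to bind E-box DNA, and the LIM-only protein Lmo2 bridges this pair to Ldb1 and to GATA factors on nearby GATA sites. Ldb1 self-associates and can bring distant elements, such as the globin locus control region, to promoters. Cbfa2t3 and Cbfa2t2 are corepressors of the ETO family that join the complex, and Runx1 is a DNA-binding factor of blood stem cells and megakaryocytes that often occupies the same elements.

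On the autosomes, X and Y, 48026 peaks were deposited for replicate 1 and 46950 for replicate 2. The sets hold no read counts, so sequencing depth is unknown. Each peak carries the authors' own value, called the enrichment value here, whose scale is not stated in the sources used. A gene or start was called marked when a peak of each replicate lay within 1000 bp of it. By this rule 47.1% of all protein-coding genes were marked at the 5' end. Of the erythroid markers, 9 of 10 were marked, Klf1 and Alas2 among them. The exception was Gata1, which was marked inside the gene. At the 5' ends of the 9 marked ones, values in replicate 1 ranged from 3.97 at Slc4a1 to 20.9 at Alas2. In replicate 2 they ranged from 3.82 at Epb42 to 21.3 at Klf1. The median of all peaks was 5.51 in replicate 1 and 5.31 in replicate 2. None of the 8 granulocyte or macrophage, 5 B cell and 5 T cell markers was marked at the 5' end, while 3 of 6 megakaryocyte markers were (Itga2b, Gp9 and Pf4), near the share of all genes. In the granulocyte or macrophage, B cell and T cell lists, 2 to 3 markers each had a peak of both replicates elsewhere. These peaks overlapped the gene span ± 1000 bp, with values up to 22.3 in replicate 1 and 21.6 in replicate 2 at Lck. Whether they lie at promoters of neighbouring genes was not examined.

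Of the 8 genes, 7 were marked at the 5' end of the gene, against 47.1% of all protein-coding genes. The exception, Ldb1, was marked inside its span, so all 8 had a peak of both replicates over the gene span ± 1000 bp, against 57.9% of all genes. The windows summed to 907.3 kb and held 78 peaks in replicate 1 and 79 in replicate 2, on average 78.5 ± 0.707 (mean ± SD over n = 2 replicates, the form used throughout). Of these, 67 in replicate 1 and 65 in replicate 2 overlapped a peak of the other replicate. That is 85.9% and 82.3%, close to the 84.6% of all replicate 1 peaks and 80.9% of all replicate 2 peaks. The 11 and 14 unshared peaks were weak, with values of at most 3.61 in replicate 1 and 4.59 in replicate 2.

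**Figure D1:**
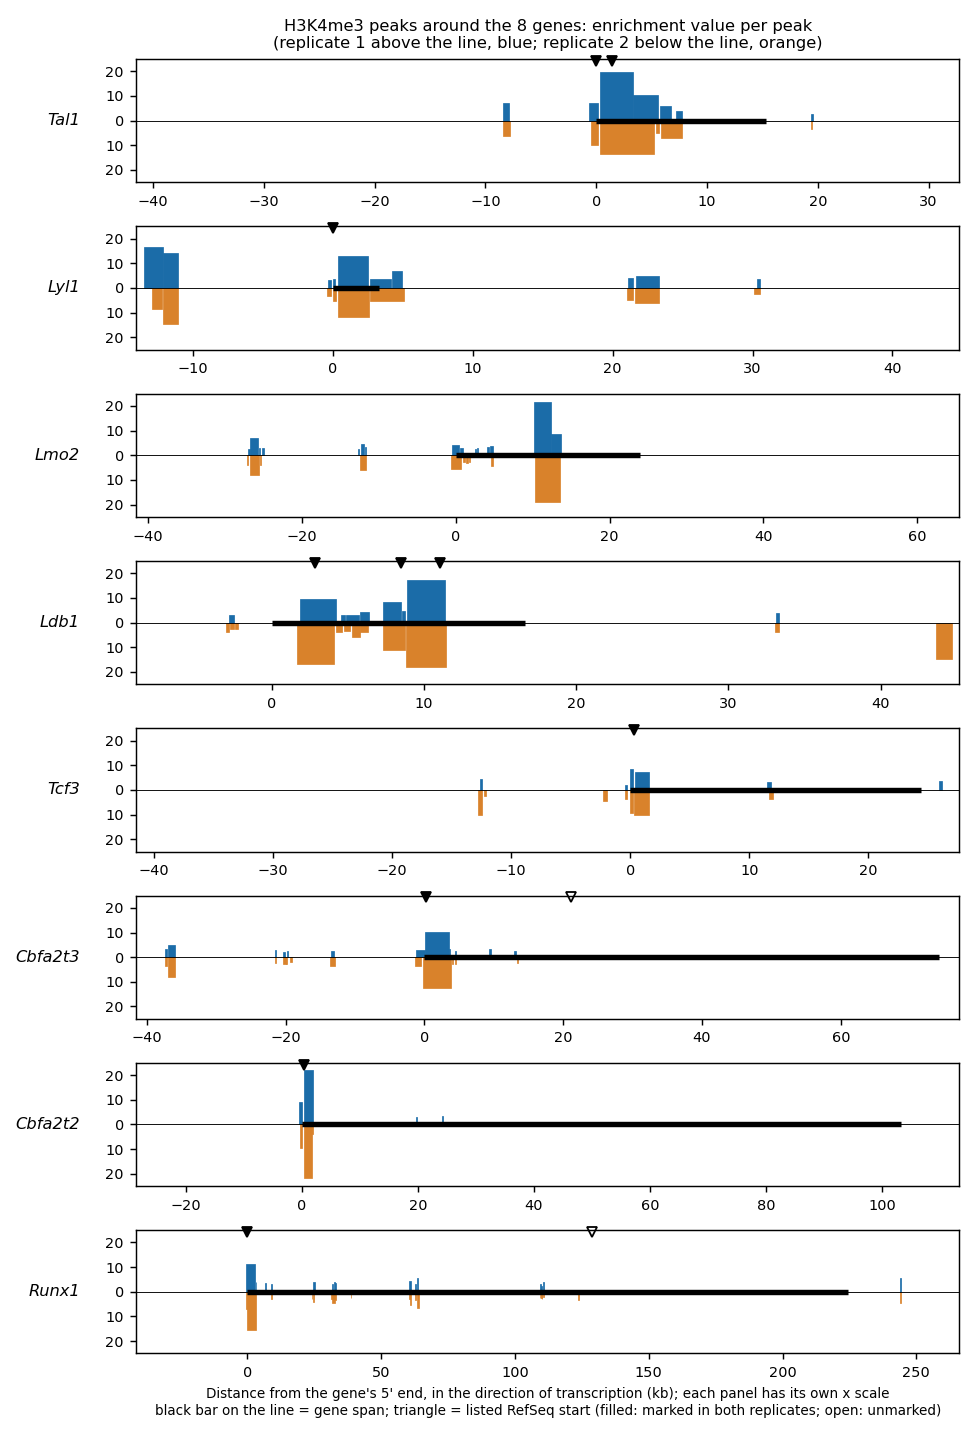
All peaks in the windows of the 8 genes. Each panel is a gene, the x axis is the distance from its 5' end in kb, and the bar height is the enrichment value of a peak in replicate 1 (up, blue) and replicate 2 (down, orange); triangles are listed RefSeq starts, filled where marked. Over the genes themselves the tallest bars stand within 1000 bp of a listed start, except in Lmo2, which has no listed start here. The tallest Lmo2 peak lies 10.2 to 12.3 kb inside the gene in replicate 1 and 10.4 to 13.6 kb in replicate 2.

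RefSeq promoter sequences are shown for the starts on which the results turn: the pair of listed starts of Runx1 and of Cbfa2t3, of which only the first is marked, and the first start of Tal1. Each covers 250 bases before to 50 after the start on GRCm38.p6, the assembly of mm10. Capitals mark CpG dinucleotides in the Runx1 and Cbfa2t3 sequences, and in Tal1 the single match to AGATAA, which reads TTATCT on this strand. Runx1 start 1 is chr16:92826025-92826324 and start 2 is chr16:92697280-92697579, both on the minus strand.
Runx1 start 1, marked: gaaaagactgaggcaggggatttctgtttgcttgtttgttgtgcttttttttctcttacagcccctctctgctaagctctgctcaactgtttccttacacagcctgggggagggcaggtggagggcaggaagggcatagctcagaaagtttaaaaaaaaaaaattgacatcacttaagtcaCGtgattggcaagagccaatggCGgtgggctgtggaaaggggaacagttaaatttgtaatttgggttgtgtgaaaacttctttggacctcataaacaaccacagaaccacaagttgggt
Runx1 start 2, unmarked: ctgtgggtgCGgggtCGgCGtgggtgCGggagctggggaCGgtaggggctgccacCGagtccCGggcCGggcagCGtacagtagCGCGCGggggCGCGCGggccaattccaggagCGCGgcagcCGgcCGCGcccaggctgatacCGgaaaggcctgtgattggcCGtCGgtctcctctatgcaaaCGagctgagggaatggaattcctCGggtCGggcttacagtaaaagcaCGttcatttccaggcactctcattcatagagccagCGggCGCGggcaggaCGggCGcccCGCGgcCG
Cbfa2t3 start 1 is chr8:122699060-122699359 and start 2 is chr8:122678126-122678425, both on the minus strand, and Tal1 start 1 is chr4:115056176-115056475 on the plus strand.
Cbfa2t3 start 1, marked: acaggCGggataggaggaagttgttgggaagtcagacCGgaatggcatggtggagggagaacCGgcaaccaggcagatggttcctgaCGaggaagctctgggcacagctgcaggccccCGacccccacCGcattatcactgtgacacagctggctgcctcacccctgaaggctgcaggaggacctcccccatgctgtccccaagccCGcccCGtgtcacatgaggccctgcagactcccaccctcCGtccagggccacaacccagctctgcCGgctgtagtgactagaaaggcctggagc
Cbfa2t3 start 2, unmarked: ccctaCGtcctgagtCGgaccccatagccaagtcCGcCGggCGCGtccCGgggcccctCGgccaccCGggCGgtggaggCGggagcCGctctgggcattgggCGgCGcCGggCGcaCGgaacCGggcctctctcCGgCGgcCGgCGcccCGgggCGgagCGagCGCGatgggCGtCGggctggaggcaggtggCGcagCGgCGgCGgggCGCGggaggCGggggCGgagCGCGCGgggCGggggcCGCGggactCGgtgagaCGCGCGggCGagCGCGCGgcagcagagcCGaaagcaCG
Tal1 start 1, marked: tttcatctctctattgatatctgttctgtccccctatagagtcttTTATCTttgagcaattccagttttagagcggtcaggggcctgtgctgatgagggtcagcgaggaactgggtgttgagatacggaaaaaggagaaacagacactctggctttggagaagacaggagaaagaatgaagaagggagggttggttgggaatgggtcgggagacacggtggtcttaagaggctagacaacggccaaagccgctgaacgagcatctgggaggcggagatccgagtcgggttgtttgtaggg

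Tal1, the basic helix-loop-helix factor needed to form all blood cells, is NCBI gene 21349 at chr4:115056426-115071755 on the plus strand. Its listed starts at 0 and 1.39 kb were both covered by a peak in both replicates. The strongest peak had a value of 19.7 in replicate 1 and 13.5 in replicate 2, a mean of 16.6 ± 4.38, and was 2955 and 4890 bp wide. This was the largest difference between replicates in the highest value of any of the 8 genes, and replicate 1 was the higher. The peak also covered the start of the gene Gm33786 inside Tal1, so the mark there cannot be assigned to Tal1 alone. After peaks no more than 1000 bp apart had been joined, the mark ran from 0.609 kb upstream to 7.74 kb inside the gene in replicate 1, a domain of 8351 bp. The domain measured 8261 bp in replicate 2, and the mean was wider than that of 99.7% of genes marked over the span. So Tal1 stood out by breadth more than by height, since its mean value exceeded that of 82.4% of these genes.

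A separate peak lay 7.83 to 8.45 kb upstream of Tal1, with values of 7.20 in replicate 1 and 6.44 in replicate 2, over the span of the noncoding gene Gm52674. A weak narrow peak, 2.76 in replicate 1 and 3.32 in replicate 2, lay downstream of the gene, 19.4 to 19.6 kb from the 5' end. Mouse Tal1 is known to have a blood stem cell enhancer downstream of its coding exons. Whether this peak lies on it was not tested. No peak fell in the remaining stretch up to the promoter of Pdzk1ip1, where the window ended.

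Lyl1, the close relative of Tal1 that can stand in for it in adult stem cells, is gene 17095 at chr8:84701423-84704716 on the plus strand. Its strongest peak had a value of 13.0 in replicate 1 and 11.6 in replicate 2 (12.3 ± 0.964), and began 0.391 and 0.365 kb downstream of the 5' end. The domain was 5309 and 5515 bp wide, wider than at 97.3% of marked genes, and outran the 3294 bp gene. This rank depends on the joining of peaks across 1000 bp. It was 87.2% with no joining and 90.2% with joining across 3000 bp. Height was not unusual, with 42.3% of marked genes lower. The distal part of the domain also overlapped the span of the neighbouring gene Nfix, so the mark there cannot be assigned to Lyl1 alone.

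Around Lyl1 every peak was shared by the replicates. A pair of strong peaks lay 11.1 to 13.5 kb upstream over the gene Trmt1, the nearer with values of 14.3 in replicate 1 and 14.5 in replicate 2. The farther one had 16.6 in replicate 1 and 8.42 in replicate 2, so the replicates differed there, and it crossed the window's edge at the Nacc1 promoter. Downstream, peaks between 21.0 and 23.3 kb with values up to 4.72 in replicate 1 and 6.21 in replicate 2 lay at the start of the noncoding gene G430095P16Rik, inside the Nfix span.

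Tcf3, which encodes the E proteins E12 and E47, is gene 21423 at chr10:80409541-80433976 on the minus strand. Its mark had the lowest value of the 8, and the narrowest domain unless peaks up to 3000 bp apart were joined, where Cbfa2t2 was narrower. The highest value was 8.34 in replicate 1 and 10.2 in replicate 2 (9.27 ± 1.32), lower than at most marked genes, with 19.7% below it. The domain was 2010 bp in replicate 1 and 2021 bp in replicate 2, wider than at 43.3% of marked genes. The listed start, 0.341 kb inside the gene, fell in a gap between peaks in both replicates. A peak 12.4 to 12.8 kb upstream had a value of 4.29 in replicate 1 and 10.4 in replicate 2. The replicates differed here: the upstream peak was well below the promoter peak in replicate 1 and level with it in replicate 2.

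Lmo2, the LIM-only bridging protein, is gene 16909 at chr2:103957903-103981878 on the plus strand, and its RefSeq starts are not listed in the promoter table. At its 5' end the mark was weak, 4.16 in replicate 1 and 5.45 in replicate 2. Its strongest peak stood 10.2 to 12.3 kb inside the gene in replicate 1 and 10.4 to 13.6 kb in replicate 2. It had values of 21.7 in replicate 1 and 19.2 in replicate 2 (20.4 ± 1.82), higher than at 96.7% of marked genes. It lay over the span of Gm38515 as well. A weaker replicate 1 peak of 8.69 followed at 12.45 to 13.72 kb. Both replicates thus placed the main mark far from the 5' end. Lmo2 is known to have a distal and a proximal promoter. The authors' older peak set on mm9 was set against GENCODE M1 transcripts of that build. In it, 10 of 10 annotated Lmo2 transcript starts were marked, by 2 peaks. The 8 of them between 11.5 and 13.2 kb from the 5' end lay at a peak with the authors' value of 4.28, against 1.48 for the peak at the distal starts. In the other genes the counts were 4 of 4 in Tal1, 1 of 1 in Lyl1 and 6 of 7 in Ldb1. They were 5 of 11 in Tcf3, 2 of 7 in Cbfa2t3, 5 of 9 in Cbfa2t2 and 2 of 5 in Runx1. The share over all mm9 transcript starts was not computed. The older set is pooled over this series, so it is not separate support.

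Upstream of Lmo2, a cluster of peaks 24.9 to 27.1 kb away reached 6.96 in replicate 1 and 8.01 in replicate 2. Another at 11.7 to 12.7 kb reached 4.44 in replicate 1 and 6.002 in replicate 2, over the noncoding gene Gm39896. Both clusters were higher than the peak at the 5' end in each replicate. Enhancers active in mouse blood cells are known upstream of Lmo2, and whether these peaks lie on them was not tested.

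Ldb1, the self-associating adaptor that joins distant elements, is gene 16825 at chr19:46031525-46048145 on the minus strand. No peak of both replicates lay within 1000 bp of the 5' end of its span, but all 3 listed starts, at 2.83, 8.52 and 11.1 kb inside, were marked. No listed start thus lies at the 5' end of the span. In the older set on mm9, the 5' end of Ldb1 in GENCODE M1 was marked, with the authors' value of 3.34. The 5' ends of both annotations were not matched across builds. The first had a value of 9.43 in replicate 1 and 16.9 in replicate 2 (13.2 ± 5.26). The other two shared the strongest peak, 17.1 in replicate 1 and 18.2 in replicate 2 (17.7 ± 0.75), which exceeded 88.0% of marked genes. Unlike at Tal1, replicate 2 was the higher at both places. The joined domain was 9528 bp in replicate 1 and 4614 bp in replicate 2, because a gap in replicate 2 exceeded 1000 bp. The mean of 7071 bp therefore rests on replicate 1 and is 4614 bp without it. Peaks covered 16.6% of the window in replicate 1 and 18.0% in replicate 2, the largest share of the 8 windows, and in replicate 2 they included the edge of the Hps6 promoter peak. This window, cut at the promoters of Pprc1 and Hps6, was also the smallest of the 8, at 51047 bp. The bases covered, 8464 in replicate 1 and 9185 in replicate 2, were near those at Tal1, 8301 and 8540.

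Cbfa2t3, also known as ETO2, is the corepressor of the Tal1 complex in erythroid precursors and is gene 12398 at chr8:122625136-122699332 on the minus strand. The peak at its first listed start, 0.223 kb inside, had a value of 10.2 in replicate 1 and 12.4 in replicate 2 (11.3 ± 1.6) and was 3341 and 4022 bp wide. The domain was 5841 bp in replicate 1 and 5970 bp in replicate 2, wider than at 98.3% of marked genes, at a height that exceeded only 32.9%. The domain also covered the start of the gene Gm10612, so the mark there cannot be assigned to Cbfa2t3 alone. Its second listed start, 21.2 kb inside, had no peak in either replicate, and the nearest peaks were 7.94 kb away in replicate 1 and 7.63 kb in replicate 2. Upstream, a peak 35.9 to 36.9 kb away had a value of 4.76 in replicate 1 and 8.04 in replicate 2, over the span of C230057M02Rik.

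Cbfa2t2, its relative MTGR1, is gene 12396 at chr2:154436098-154539356 on the plus strand and had the opposite shape. Its peak was the highest of the 8 genes, at 21.9 in replicate 1 and 21.8 in replicate 2 (21.9 ± 0.069), above 98.2% of marked genes. Its domain was of common width, 2337 bp in replicate 1 and 2296 bp in replicate 2, wider than at 55.4% of them. The listed start lay in the gap between an upstream peak of 9.10 in replicate 1 and 9.47 in replicate 2 and the tall downstream one. Apart from these and a small replicate 2 peak that adjoined the tall one, no peak of its window was shared. Of the window, 1.74% was covered in replicate 1 and 1.31% in replicate 2.

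Runx1 is gene 12394 at chr16:92601466-92826074 on the minus strand, and is known to have a distal and a proximal promoter, the proximal one in a CpG island. Its first listed start, at the 5' end, was covered by a peak of 11.1 in replicate 1 and 15.5 in replicate 2 (13.3 ± 3.16), 3373 and 3343 bp wide. Its second, 128.7 kb inside, had no peak in either replicate, and the nearest were 18.0 kb away in replicate 1 and 4.88 kb in replicate 2. Only the first of both listed starts thus carried a called peak. In the older set on mm9, the 2 annotated Runx1 transcript starts within 0.055 kb of the 5' end were marked and the 3 between 128.7 and 130.4 kb were not. That set is pooled over the same series and is not separate support.

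Between its starts Runx1 carried many weak peaks. They included peaks at 60.2 to 64.0 kb with values up to 5.66 in replicate 1 and 6.52 in replicate 2, the highest of which lay at the start of the noncoding gene Gm30281. A peak at 24.4 to 25.1 kb had a value of 3.95 in replicate 1 and 4.00 in replicate 2. An intronic Runx1 enhancer of blood stem cells is known between both promoters in mouse, and whether this peak lies on it was not tested. A peak beyond the gene's 3' end, 243.8 to 244.1 kb from the 5' end, had a value of 5.78 in replicate 1 and 4.65 in replicate 2.

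**Figure D2:**
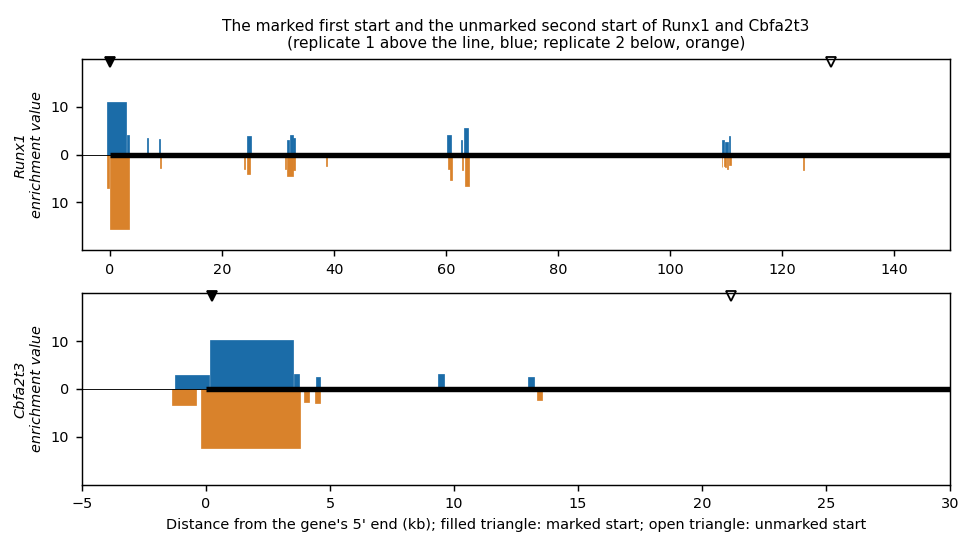
Peaks between the listed starts of Runx1 and Cbfa2t3, with distance from the 5' end in kb on the x axis and the enrichment value on the y axis (replicate 1 up, replicate 2 down). In both genes a peak of both replicates stands at the first start (filled triangle), and none within 1000 bp of the second (open triangle, 128.7 kb and 21.2 kb inside).

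Across the 7 genes with RefSeq starts in the promoter table, 10 of 12 listed starts were marked, against 48.8% of the 21262 listed protein-coding starts. Of the 10 marked starts, 7 were covered by a peak in both replicates, against 48.2% of all marked starts. The exceptions were the starts of Tcf3 and Cbfa2t2, in a gap in both replicates, and Ldb1 start 2, which missed a replicate 1 peak by 0.007 kb. The Tcf3 start missed a peak by 0.064 kb in replicate 1 and 0.003 kb in replicate 2. The Cbfa2t2 start missed by 0.082 kb in replicate 1 and 0.043 kb in replicate 2. Within 2000 bp of the marked starts, peaks covered a median of 1826 bp downstream and 792 bp upstream in the 8 genes' starts, against 1175 bp downstream and 808 bp upstream over all marked starts. The downstream median was thus the longer in both, and by more at these genes. The starts are not independent, since both Tal1 starts share a peak, as do Ldb1 starts 2 and 3. Only Ldb1 start 3 went the other way. It had 2000 bp covered upstream in each replicate, against 343 bp downstream in replicate 1 and 383 bp in replicate 2.

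The CpG content of the promoter sequences ranged widely among the marked starts of these genes, from 0.137 at Runx1 start 1 to 1.19 at Ldb1 start 1. It is given as the observed number of CpG over that expected from the C and G content. Of the starts of these genes with a ratio of at least 0.6, 6 of 8 were marked, against 79.2% of all such starts. Of their starts under 0.6, 4 of 4 were marked, against 21.1% of all such starts. These 4 were Runx1 start 1 at 0.137, Ldb1 start 3 at 0.257, Lyl1 at 0.261 and Cbfa2t3 start 1 at 0.33. Ldb1 start 3 was marked by the peak that it shared with the CpG-rich Ldb1 start 2, at 0.677. Its mark therefore cannot be told apart from that of start 2. The mark at Cbfa2t3 start 1 likewise cannot be told apart from that of Gm10612. Both unmarked starts were also CpG-rich, within the range of marked starts such as Tcf3 at 1.03, Cbfa2t2 at 1.16 and Ldb1 start 1. Runx1 start 2 had a ratio of 1.01 and 35 CpG in 300 bases, and Cbfa2t3 start 2 had 1.09 and 53 CpG. Their marked partners held 2 CpG in Runx1 and 10 in Cbfa2t3, as the capitals in the printed sequences show.

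Such a pair was uncommon. Of the 8 genes, 3 had a CpG-poor and a CpG-rich listed start over 2000 bp apart. In 2 of these 3, Runx1 and Cbfa2t3, the CpG-poor start was marked and the CpG-rich one unmarked, against 4.59% of all 740 genes with such starts. The converse, a marked CpG-rich and an unmarked CpG-poor start, was found in 0 of the 3, against 50.9% of the 740, and all starts of Ldb1 were marked. This comparison was made after the pattern had been seen in these genes. In Cbfa2t3 the mark at the CpG-poor start cannot be assigned to that gene alone, since Gm10612 starts there too. An unmarked start beside a marked one was itself common, found in 71.3% of the 771 genes with a marked start and another over 2000 bp away.

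**Figure D3:**
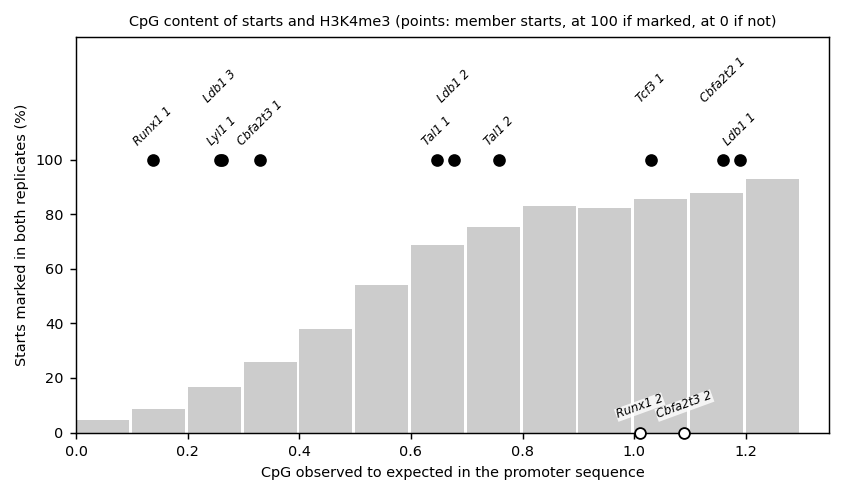
Share of listed protein-coding starts marked in both replicates (y axis, percent) by CpG observed to expected of the promoter sequence (x axis, bins of 0.1, the last with all higher ratios; grey bars). Points are the 12 listed starts of the 7 genes that have one, at the top if marked and at 0 if not, labelled by gene and start number: the 4 starts below 0.6 are all marked, where the bars rise to at most 54.0%, and the 2 unmarked starts lie above 1, where the bars stand at 85.5% or more. Ldb1 start 3, below 0.6, shares its peak with Ldb1 start 2, above 0.6.

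Height and breadth of the mark did not go together in these genes. The median of their highest values was 15.0, against 13.0 over the 12468 genes marked over the span, so their height was close to that of other marked genes. The median of their widest domains was 4622 bp, against 2172 bp over all marked genes. Tal1, Lyl1, Ldb1 and Cbfa2t3 had a mean domain of at least 5000 bp, 4 of 8 genes, against 4.02% of all marked genes. This count rests on the joining of peaks across 1000 bp, and on replicate 1 for Ldb1. With no joining it was 0 of 8, against 0.176% of all marked genes, and with joining across 3000 bp it was 5 of 8, Lmo2 added, against 12.0%. Which genes ranked as broad also depended on joining. With no joining Tal1 was wider than 99.1% of marked genes, Cbfa2t3 than 98.6% and Runx1 than 97.9%. Ldb1 was then wider than 92.4% and Lyl1 than 87.2%. The median domain was 2629 bp against 1380 bp over all marked genes with no joining, and 5433 bp against 2371 bp across 3000 bp. The highest peaks belonged to Cbfa2t2 and Lmo2, neither of which reached 5000 bp with joining across 1000 bp. The order by height was Cbfa2t2, Lmo2, Ldb1, Tal1, Runx1, Lyl1, Cbfa2t3 and Tcf3. Neighbours from Ldb1 down to Tcf3 had overlapping replicate values, so that part of the order is not firm. Cbfa2t2 and Lmo2 did not overlap but differed by less than the SD of Lmo2, while Lmo2 lay above Ldb1 in each replicate, in replicate 2 by less than the SD of Lmo2.

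**Figure D4:**
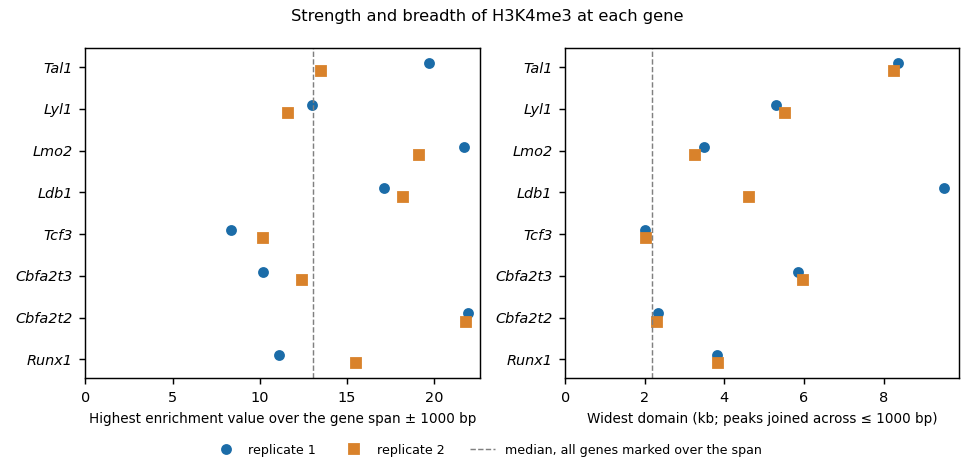
Highest enrichment value over the gene span ± 1000 bp (left, x axis) and widest joined domain in kb (right, x axis) for each gene, with replicate 1 as circles and replicate 2 as squares; the dashed lines are the medians over all genes marked over the span. Cbfa2t2 and Lmo2 lie farthest right in height, while Tal1, Lyl1 and Cbfa2t3 lie far right in breadth in both replicates and Ldb1 in replicate 1.

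Away from the listed starts and 5' ends of the 8 genes themselves, the windows held 57 peaks in replicate 1 and 59 in replicate 2. Of these, 47 and 45 were shared. Their median value was 3.44 in replicate 1 and 3.53 in replicate 2, against 8.34 and 10.01 for the peaks at starts. The peak inside Lmo2 is counted among them, since no start is listed there. Peaks within 1000 bp of the starts of other genes are counted too, such as Gm33786 in Tal1, G430095P16Rik near Lyl1 and Gm30281 in Runx1. Runx1 and Lmo2 held the most peaks of any window in replicate 1, with 15 each, while in replicate 2 Runx1 had 20 and Lmo2 had 10. The Runx1 window was the largest, and only 2.82% of it was covered in replicate 1 and 3.12% in replicate 2.

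Binding motifs of the complex and its partners, and a site of Krüppel-like factors, were searched on both strands of the listed promoters. AGATAA, a core of GATA sites, was found in 2 of 12 starts, against 9.65% of all promoters. These were Tal1 start 1, where it begins at position -205 from the start in the sequence printed above, and Ldb1 start 3, which held 2 matches. The E-box CANNTG was found in 7 of 12, against 69.0%. TGTGGT, a core of RUNX sites, was found in 1 of 12, against 15.0%, namely Runx1 start 1 itself, which held 2 matches. An E-box followed after 9 bases by GATA, the composite arrangement known for the Tal1 complex, was found in 1 of 12, against 0.522%. That was Cbfa2t3 start 1, whose E-box is also counted among the CANNTG matches. CCACACCC, a site of Krüppel-like factors, was found in 0 of 12, against 3.63%. A match is only a run of letters in these windows and shows no binding.

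Other genes of the pathway were read from a list. Of 28, 20 were marked at the 5' end, where the share of all genes was 47.1%, and 23 over the span, where it was 57.9%. All 8 corepressor genes were marked (Gfi1b, Kdm1a, Rcor1, Hdac1, Hdac2, Sin3a, Ncor1 and Irf2bp2), among them Gfi1b, an erythroid repressor, with 20.5 in replicate 1 and 14.6 in replicate 2. Of the DNA-binding partners and Id inhibitors, 5 of 7 were marked, and Tal2 and Id4 had no peak. Of the LIM-only and adaptor relatives, 4 of 7 were marked, namely Lmo4, Ssbp2, Ssbp3 and Ssbp4, while Lmo1, Lmo3 and Ldb2 were unmarked. Of the ETO and RUNX relatives, 2 of 4 were marked (Runx3 and Cbfb), and Runx1t1 and Runx2 were unmarked at the 5' end. Of the GATA partners, Gata2 was marked with 9.86 in replicate 1 and 13.7 in replicate 2. Gata1 had no peak at the 5' end of its span, but had 21.1 in replicate 1 and 15.0 in replicate 2 inside it.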

How the data were processed

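H3K4me3 ChIP-seq peak sets of 2 biological replicates of DMSO-treated MEL cells were used as deposited on mm10, with 1 set per replicate. The enrichment value of each peak is the signal value in column 7 as the authors deposited it, and its scale is not stated. The q-value of each peak was deposited by the authors on a −log10 scale, and 3.85% and 4.16% of peaks have a q-value above 0.05. For the aligner, the caller and the threshold, nothing is given in the sources used here. The pooled, replicated and older mm9 sets were used only where named, and mm9 was set against GENCODE M1 without conversion.

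Genes and promoters came from RefSeq GRCm38.p6 tables. Strand came from the promoter table or, for genes without an entry such as Lmo2, from GENCODE M1 by symbol or synonym. A total of 351 genes without strand were left out. Transcripts, exons and introns of mm10 were not annotated. A listed gene has 1 start per listed promoter, 17491 genes having at least 1. Domains are peaks joined across at most 1000 bp. The enrichment value of a gene is the highest peak value per replicate, then averaged, which takes both sets to share a scale. Peaks overlap if they share 1 bp.

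The members, the pathway list and the markers were chosen with earlier results of these data known, so counts stand beside the share of all genes and no test was run. All 8 genes are named, pathway genes are given as counts with the unmarked ones named, and neighbours are named where they end a window or share a peak. The marking rule was tested on simulated data. The planned comparison of 5' ends of all transcripts used the listed RefSeq starts instead. Python 3.11.15, pandas 2.3.3, numpy 2.4.6 and matplotlib 3.10.9 were used.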

Additional observations from a re-analysis of the deposited data

How the results depend on the processing

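The number of genes marked at the 5' end was 7 or 8, the number of marked listed starts was 10 and the number of marked pathway genes was 20 to 23 under every alternative run: windows of 500 and 2000 bp, −log10 q of at least 2 and 5, the pooled and replicated sets, the whole span, any listed start and each replicate alone, as far as each was planned for that count. The mean of 78.5 window peaks fell to 43.0 at −log10 q of at least 5, since weak peaks are removed, and lay between 58.0 and 109.0 under the other alternatives, of which 109.0 is without stopping at neighbouring promoters. Leaving out each replicate gave 78.0 to 79.0. Joined domains moved more: with no joining all 8 were narrower than in the text (Ldb1 2582 bp, against 7071 bp; Tal1 3922 bp, against 8306 bp), the number of domains of at least 5000 bp was 0, against 4, and with a gap of 3000 bp Lmo2 and Tcf3 widened beyond the spread of the replicates. The number of such domains was 3 to 4 when each replicate was left out. In the pooled set 3 of 8 highest values and 2 of 8 domains moved beyond that spread. The alternatives with listed starts and with the gene span for the highest value were chosen after seeing the data, as were the CpG pairs and the width of 5000 bp. No paired analysis was possible because there is only 1 group. Depth is unknown, so a start without a peak is one at which no peak was called, not one shown to lack the mark.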
